A study of Mus musculus with 2 samples.

Results

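The 32 genes described here encode enzymes of cholesterol and fatty acid synthesis together with the sterol sensors, transcription factors and turnover proteins that act with them. They were taken by symbol, in pathway order, from the 55536 gene rows of the tables, and all 32 were found. The list does not hold every enzyme of the pathway. The samples were left cerebral cortex of B6NCrl mice, a C57BL/6 substrain, aged 6 months, and all formed 1 group with 2 libraries, replicate 1 and replicate 2. Each library was made from 20 ng of RNA enriched for poly(A) tails, with Nextera tagmentation, which fragments cDNA with a transposase. The labels name no treatment, and 1 label gives the tissue as male while another gives the sex as not collected. The labels number the libraries as biological replicates 1 and 2, with different sample records under a shared donor entry. Whether they came from separate animals cannot be told from the labels, so the spread between them may be biological or technical. Genes received 26776276 fragments in replicate 2 and 51888490 fragments in replicate 1. With a single group, the comparisons that the design allows are between genes within a library and between replicate 2 and replicate 1.

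Cholesterol does not cross the blood-brain barrier, so the brain makes its own, and most of it ends up in myelin. Synthesis runs from acetyl-CoA through mevalonate to squalene, which is closed into a ring and trimmed to cholesterol in late steps. When sterol in the endoplasmic reticulum is low, SCAP carries the transcription factors SREBP1 and SREBP2 to the Golgi for cleavage, and the cleaved factors activate genes of the pathway. INSIG proteins hold SCAP back when sterol is high. Neurons dispose of surplus cholesterol through CYP46A1, a hydroxylase whose product can leave the brain.

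All 32 genes were detected, at 1 TPM or more in both libraries, where TPM is a level scaled to transcript length and library size. Their median level was 27.49 TPM in replicate 2 and 28.84 TPM in replicate 1, against 11.71 TPM in replicate 2 and 12.7 TPM in replicate 1 for the 13800 genes detected in all. Ordered by mean, levels ran from 161 TPM in replicate 2 and 154 TPM in replicate 1 for Msmo1, a methyl sterol oxidase, down to 4.75 TPM in replicate 2 and 3.33 TPM in replicate 1 for Stard4, a sterol transfer protein. The abundant members were spread along the pathway: Msmo1, Cyp46a1, Hmgcs1, Fdps, Scd2 and Insig1 each averaged above 114 TPM and lay above 90.4% or more of the detected genes. The transcription factor gene Srebf1 stood lower, at 10.9 TPM in replicate 2 and 8.93 TPM in replicate 1, above 44.4% of the detected genes. The order of the 32 levels was largely shared, with a Spearman correlation across genes of 0.946 between the libraries, against 0.952 over the 14656 genes tested. Genes are not independent replicates, so this is a description.

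**Figure D1:**
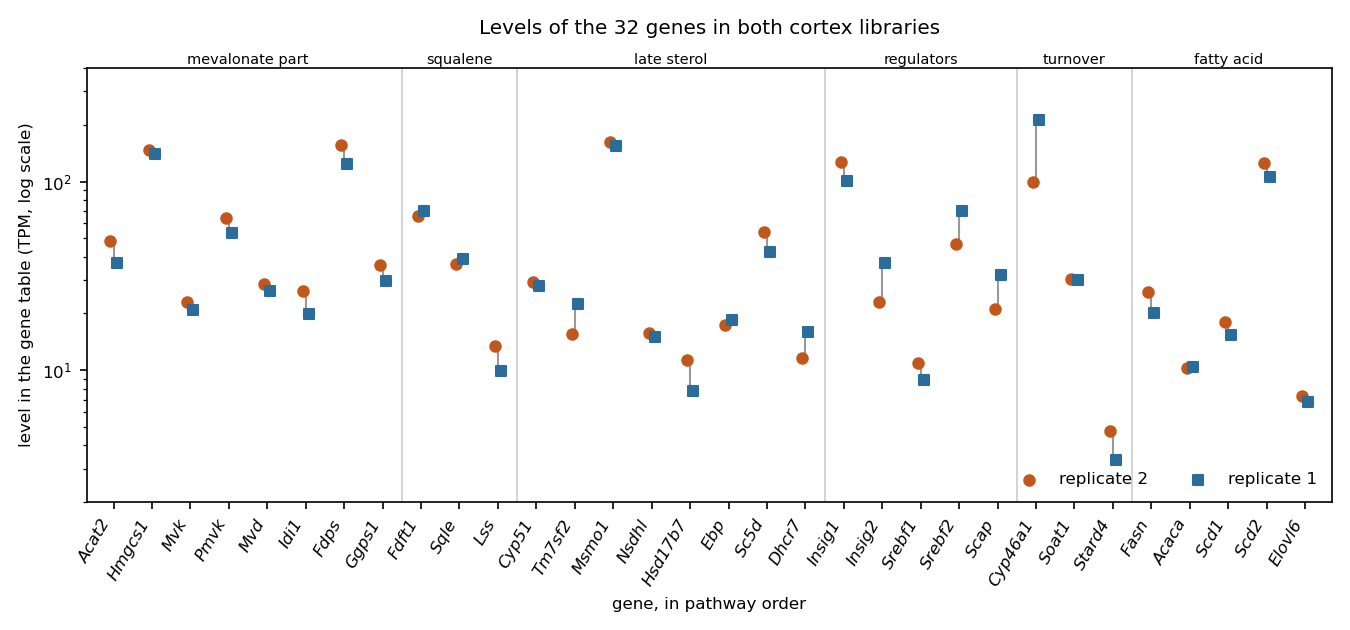
The level of each of the 32 genes in TPM (vertical axis, log scale) in replicate 2 (circles) and replicate 1 (squares), ordered along the pathway. Most pairs of points lie close together, while Cyp46a1 stands at 99.8 TPM in replicate 2 and at 212 TPM in replicate 1.

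Replicate 2 was then compared with replicate 1 for each gene by a two-sided exact binomial test on fragment counts. Library sizes were scaled by TMM, a method that sets aside the genes that differ most, and p-values were adjusted by Benjamini-Hochberg over the 14656 genes with a mean CPM (counts scaled to library size) of at least 1, which all 32 genes passed. This test compares those libraries, not conditions, and its 95% Clopper-Pearson intervals cover counting error only. Of the 32 genes, 11 were higher in replicate 2, 13 were lower and 8 did not pass an adjusted p of 0.05. Over all genes tested 62.3% passed, 26.0% as higher and 36.3% as lower. At 1.5-fold or more, 0 of the 32 were higher and 3 were lower in replicate 2, namely Cyp46a1, Srebf2 and Dhcr7. Over all genes 20.5% reached that fold, 3.22% as higher and 17.2% as lower. The median log2 ratio, replicate 2 over replicate 1, was -0.05 for the 32 genes and -0.03 for all genes tested. Scaling by total counts in place of TMM moved the median of all genes to 0.09 and the split of the 32 to 18 higher and 9 lower, where 39.1% of all genes were higher and 28.1% were lower, so small differences are read relative to that shift. By TPM, 22 of the 32 genes (68.8%) were higher in replicate 2, against 57.5% of 13331 genes tested at 1 TPM or more in both libraries, and 5 of those called lower by CPM (Hmgcs1, Cyp51, Msmo1, Soat1 and Scd1) had more TPM there.

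**Figure D2:**
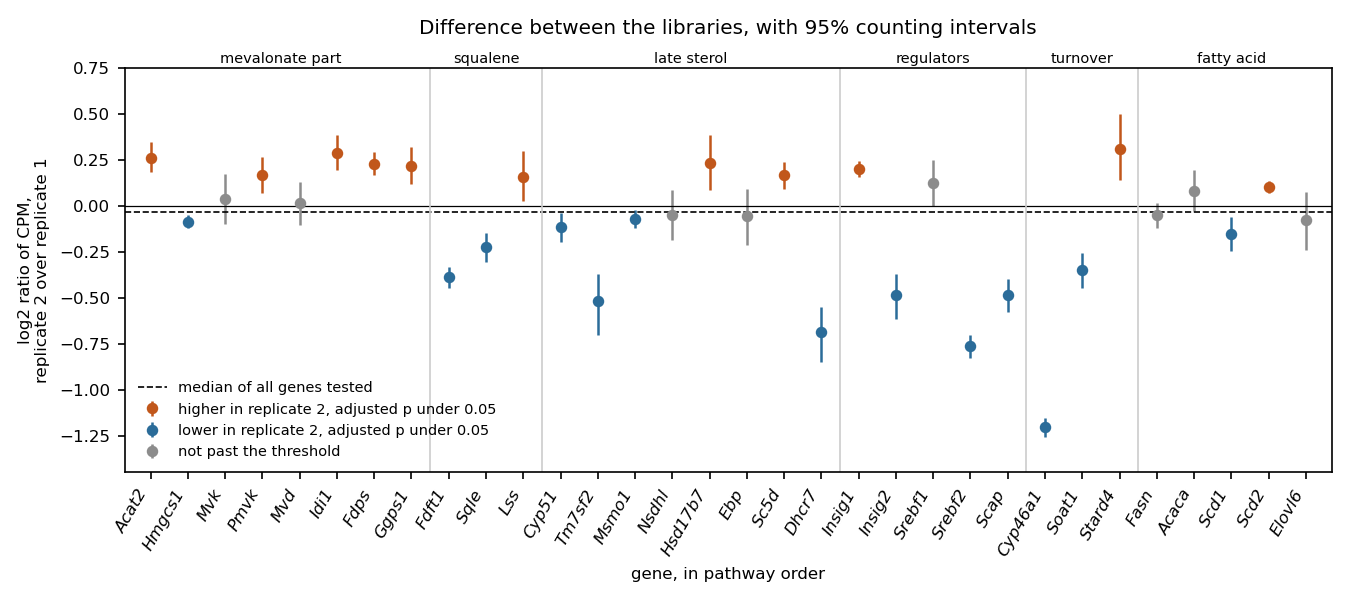
The log2 ratio of CPM, replicate 2 over replicate 1, for each of the 32 genes in pathway order, with 95% counting intervals as bars and the median of all genes tested as a dashed line. Most genes lie within 0.4 of 0 on the log2 scale, and Cyp46a1, Srebf2 and Dhcr7 lie lowest at -1.20, -0.76 and -0.69.

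SREBPs act at the sterol regulatory element in concert with factors that bind CCAAT boxes and GC boxes, so the promoters of the list were searched for these letters. RefSeq promoter windows on GRCm38.p6, from 250 bases before to 50 bases after each annotated start, matched 26 of the 32 genes with 34 windows; Fdft1, Fdps, Scd1, Scd2, Sqle and Stard4 had no entry. Both strands were searched, and no matches of different motifs overlapped. The sterol regulatory element core TCACNCCAC was found in 1 of the 26 genes, Hmgcs1, at bases -137 to -129 from the start, and in 1.44% of all genes with a window. CCAAT was found in 22 of the 26 (84.6%), against 41.1% of all genes. GGGCGG, the GC box, was found in 21 of the 26 (80.8%), against 38.2% of all genes, and 18 held it and CCAAT in the same window. CACGTG, an E-box that SREBP1 can also bind, was found in Hsd17b7, Sc5d, Dhcr7, Insig1 and Scap, 5 of the 26 (19.2%), against 8.09% of all genes. The background was all 27025 genes with a window, detected in cortex or not, and was not matched to the 32 genes in level. Whether the shares differ from those of other detected genes was not tested. A match to letters is not evidence of binding, and a window without a match says nothing of the factor.

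Upstream stretches, 5′ to 3′ on the plus strand, follow for Hmgcs1 (chr13:119690101-119690350), which held the sterol regulatory element core, for Insig1 (chr5:28071162-28071362), which held an E-box beside CCAAT and GC boxes, and for Cyp46a1 (chr12:108334066-108334315) and Srebf2 (chr15:82147019-82147180), the genes of the list that differed most between the libraries. Capitals mark matches to the motifs on either strand. All come from RefSeq, GRCm38.p6, and end before the first annotated transcript start.
Hmgcs1: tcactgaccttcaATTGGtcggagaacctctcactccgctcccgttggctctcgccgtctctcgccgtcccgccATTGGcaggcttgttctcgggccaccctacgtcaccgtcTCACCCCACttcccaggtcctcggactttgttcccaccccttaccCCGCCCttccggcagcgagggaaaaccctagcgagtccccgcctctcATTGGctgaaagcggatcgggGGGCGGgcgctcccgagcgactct
Insig1: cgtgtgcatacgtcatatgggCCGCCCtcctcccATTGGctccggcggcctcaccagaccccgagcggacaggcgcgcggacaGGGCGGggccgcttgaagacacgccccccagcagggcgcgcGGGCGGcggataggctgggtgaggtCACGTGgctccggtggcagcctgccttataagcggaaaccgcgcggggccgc
Cyp46a1: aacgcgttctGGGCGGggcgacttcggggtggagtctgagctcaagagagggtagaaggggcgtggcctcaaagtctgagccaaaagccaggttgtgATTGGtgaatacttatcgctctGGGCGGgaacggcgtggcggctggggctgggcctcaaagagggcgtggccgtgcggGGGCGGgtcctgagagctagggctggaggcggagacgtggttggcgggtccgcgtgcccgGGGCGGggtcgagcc
Srebf2: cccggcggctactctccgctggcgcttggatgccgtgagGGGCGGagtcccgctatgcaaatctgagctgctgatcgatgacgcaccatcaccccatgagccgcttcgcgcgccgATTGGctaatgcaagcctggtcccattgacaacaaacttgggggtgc
Hmgcs1 shows the core TCACCCCAC between CCAAT boxes in the opposite orientation (ATTGG), and its printed stretch holds 6 matches. The Cyp46a1 stretch holds 5, of which 1 is a CCAAT box and the rest are GC boxes.

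**Figure D3:**
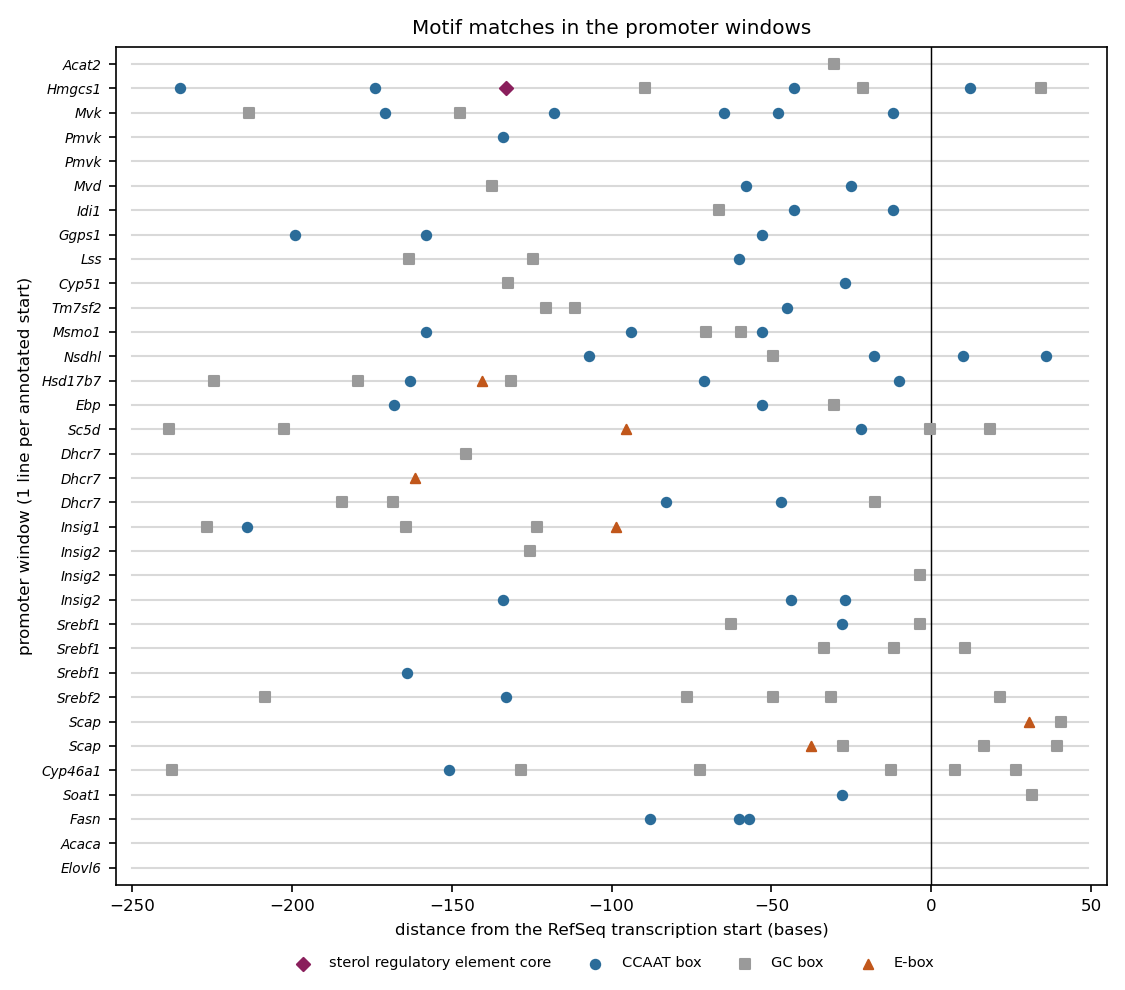
Motif matches in 34 promoter windows of 26 genes, drawn at their distance in bases from the RefSeq start (0), 1 line per window. CCAAT boxes are drawn in 23 windows, GC boxes in 25 and E-boxes in 6, and the sterol regulatory element core is drawn in 1, that of Hmgcs1.

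Among the 8 genes that lead from acetyl-CoA units to isoprenoid chains, 5 (62.5%) were higher in replicate 2, 1 (12.5%) was lower and 2 did not pass. The shares over all genes tested were 26.0% higher and 36.3% lower. The median level of the 8 was 42.12 TPM in replicate 2 and 33.34 TPM in replicate 1. Hmgcs1, the HMG-CoA synthase that commits acetoacetyl-CoA to the pathway, had the highest mean level of them, with 147 TPM in replicate 2 and 140.4 TPM in replicate 1, from 9096 fragments in replicate 2 and 17120 in replicate 1 (ENSMUSG00000093930.2, chromosome 13, 119690379 to 119708260, mm10). Its log2 ratio was -0.09 (-0.12 to -0.05; exact binomial test, adjusted p = 9.57e-06), a direction that turned to 0.04 with total counts. Fdps, which builds farnesyl pyrophosphate, was above it in replicate 2 at 157 TPM and below it in replicate 1 at 124 TPM, with a log2 ratio of 0.23 (0.17 to 0.29). Both differed by less than 1.5-fold. The cytosolic thiolase Acat2, which makes acetoacetyl-CoA, had 48.2 TPM in replicate 2 and 36.8 TPM in replicate 1 (log2 ratio 0.26). The isomerase Idi1 had 26.3 TPM in replicate 2 and 19.8 TPM in replicate 1 (0.29), the largest ratio of the 8. Of the kinases, Pmvk, which adds the second phosphate to mevalonate, had 63.8 TPM in replicate 2 and 53.1 TPM in replicate 1 (0.17). Ggps1, the branch to geranylgeranyl chains, had 36.1 TPM in replicate 2 and 29.8 TPM in replicate 1 (0.22; with the trends on GC content and length removed, 0.10 and no longer past the threshold). Mevalonate kinase, Mvk, stood at 23.1 TPM in replicate 2 and 20.9 TPM in replicate 1, with a ratio of 0.04 (-0.10 to 0.18). The decarboxylase Mvd stood at 28.7 TPM in replicate 2 and 26.3 TPM in replicate 1, with a ratio of 0.01 (-0.10 to 0.13). Neither passed the threshold, and both intervals lie well inside 1.5-fold; with the trends on GC content and length removed they were 0.28 and 0.26 and passed, and with total counts they were 0.16 and 0.14 and passed.

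Copies and neighbours limit some of these values. Of the distinct 31-base words in Acat2 transcripts, 56.25% occurred in no other gene, and 43.75% were shared with Acat3, a near copy with 3.06 TPM in replicate 2 and 1.96 TPM in replicate 1. Tcp1, a chaperonin subunit with 189 TPM in replicate 2 and 139.9 TPM in replicate 1, shared 13.21% of them. Fdps (72.06% in no other gene), Idi1 (72.91%) and Acaca (66.49%) share words mainly with pseudogenes or predicted genes, of which the largest for Fdps and Acaca were below 0.6 TPM and Gm13502, for Idi1, had 4.62 TPM in replicate 2 and 4.36 TPM in replicate 1. For Fdft1, 68.09% were in no other gene, and its exons share 774 bases with Ctsb, a cathepsin on the opposite strand with 439 TPM in replicate 2 and 375 TPM in replicate 1. The sources used here do not say whether counting used strand, so reads of that stretch cannot be assigned with certainty. Vps51 on the same strand shares 532 exonic bases with Tm7sf2.

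The 3 genes that make squalene and close the first sterol ring split in direction. In replicate 2, 1 (33.3%) was higher and 2 (66.7%) were lower, against 26.0% higher and 36.3% lower over all genes tested. Fdft1, squalene synthase, was lower, with 65.3 TPM in replicate 2 and 69.95 TPM in replicate 1 and a log2 ratio of -0.39 (-0.45 to -0.33; exact binomial test, adjusted p = 1.55e-38). Squalene epoxidase, Sqle, was lower as well, at 36.5 TPM in replicate 2 and 38.95 TPM in replicate 1 (ratio -0.22). Lss, lanosterol synthase, was higher, at 13.4 TPM in replicate 2 and 9.91 TPM in replicate 1 (ratio 0.16; 0.02 to 0.30), a call that was lost when genes of low counts were kept in the test.

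The 8 late sterol genes trim lanosterol toward cholesterol; 2 were higher in replicate 2, 4 were lower and 2 did not pass, with a median of 16.57 TPM in replicate 2 and 20.44 TPM in replicate 1. Dhcr7, the reductase that yields cholesterol itself, differed most, with 11.6 TPM in replicate 2 and 15.9 TPM in replicate 1, from 506 fragments in replicate 2 and 1457 in replicate 1 (ENSMUSG00000058454.15, chromosome 7, 143823145 to 143848410). Its log2 ratio was -0.69 (-0.85 to -0.55; exact binomial test, adjusted p = 1.4e-21), and it was -0.56, below 1.5-fold, with total counts. Tm7sf2, a sterol reductase, was also lower, at 15.6 TPM in replicate 2 and 22.3 TPM in replicate 1 (ratio -0.52; -0.70 to -0.37). Msmo1 and the demethylase Cyp51, with 29.2 TPM in replicate 2 and 27.8 TPM in replicate 1, were lower by small ratios of -0.07 and -0.12. With total counts these became 0.06 and 0.01, and with the counts of the second transcript tables, -0.02 and -0.06, they did not pass. Higher in replicate 2 were Sc5d, a desaturase of the sterol ring (53.9 TPM in replicate 2 and 42.45 TPM in replicate 1; ratio 0.17), and Hsd17b7, a ketosteroid reductase (11.3 TPM in replicate 2 and 7.75 TPM in replicate 1; ratio 0.23). Nsdhl, a decarboxylating dehydrogenase, had 15.9 TPM in replicate 2 and 15.1 TPM in replicate 1, and the isomerase Ebp had 17.3 TPM in replicate 2 and 18.6 TPM in replicate 1, with ratios of -0.05 and -0.06 that did not pass and became 0.08 and 0.07 with total counts. Adjacent steps of the pathway thus stood at unequal levels in both libraries: Msmo1 was above 154 TPM, while Nsdhl and Hsd17b7, which act with it to remove methyl groups, were below 16 TPM.

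The genes of the sterol sensor did not move together. Insig1 was higher in replicate 2 at 127 TPM, against 101 TPM in replicate 1, with a log2 ratio of 0.20 (0.15 to 0.24; exact binomial test, adjusted p = 1.51e-17). Its relative Insig2 was lower, at 23.1 TPM in replicate 2 and 37.2 TPM in replicate 1 (ratio -0.48; -0.61 to -0.37). Insig1 thus held the larger share of INSIG transcripts in both libraries. Srebf2, which encodes the SREBP that favours cholesterol genes, had 46.5 TPM in replicate 2 and 69.8 TPM in replicate 1, from 2818 fragments in replicate 2 and 8493 in replicate 1 (ENSMUSG00000022463.8, chromosome 15, 82147181 to 82205379), and a ratio of -0.76 (-0.83 to -0.70; exact binomial test, adjusted p = 4.05e-141). Scap, the escort of both SREBPs, was lower too, with 21.1 TPM in replicate 2 and 32.1 TPM in replicate 1; its ratio was -0.49, and -0.14, still past the threshold, with the trends on GC content and length removed. Srebf1, which favours fatty acid genes, had a ratio of 0.12 (-0.0028 to 0.25) that did not pass; it was 0.25 with total counts and 0.45 with the trends removed, past the threshold in both.

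Cyp46a1 showed the largest difference of the list. It had 99.8 TPM in replicate 2 and 212 TPM in replicate 1, from 4025 fragments in replicate 2 and 16471 in replicate 1 (ENSMUSG00000021259.5, chromosome 12, 108334381 to 108362234), which placed it sixth in level among the 32 in replicate 2 and first in replicate 1. The log2 ratio was -1.20 (-1.26 to -1.16), with an adjusted p of 0 at the precision held by the exact binomial test. Only 6.54% of all genes tested had a lower ratio, and the ratio of Cyp46a1 lay between -1.21 and -0.99 under every alternative fitted. Soat1, which esterifies cholesterol for storage, had 30.4 TPM in replicate 2 and 30.2 TPM in replicate 1, yet a CPM ratio of -0.35 (-0.45 to -0.25). TPM is divided by the lengths of its transcripts and CPM is not, and CPM here was also scaled by TMM. With total counts the ratio of Soat1 was -0.22. Stard4 had a ratio of 0.31 (0.14 to 0.50), which did not pass with the counts of the second transcript tables (0.04).

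Of the 5 fatty acid genes, 1 (20.0%) was higher in replicate 2, 1 (20.0%) was lower and 3 did not pass. The shares over all genes tested were 26.0% higher and 36.3% lower. None of the 5 reached 1.5-fold, though the calls of Fasn, Acaca and Scd1 changed with the processing. Scd2, a stearoyl-CoA desaturase, was by far the most abundant at 125 TPM in replicate 2 and 106 TPM in replicate 1 (log2 ratio 0.10; 0.07 to 0.13). Scd1, its relative, stood at 18.0 TPM in replicate 2 and 15.3 TPM in replicate 1, with a ratio of -0.15 that did not pass with total counts (-0.02) or with the trends removed (-0.10). Of their 31-base words, 91.82% for Scd1 and 93.19% for Scd2 occurred in no other gene. Fasn, the fatty acid synthase, had 26.0 TPM in replicate 2 and 20.2 TPM in replicate 1, with a ratio of -0.05 (-0.12 to 0.02). Acaca, the acetyl-CoA carboxylase that supplies malonyl-CoA, had 10.3 TPM in replicate 2 and 10.5 TPM in replicate 1, a ratio of 0.08 (-0.03 to 0.19). The elongase Elovl6 had 7.30 TPM in replicate 2 and 6.79 TPM in replicate 1, a ratio of -0.08 (-0.24 to 0.07). None of these 3 passed. Acaca was 0.21 with total counts and 0.17 with the trends removed, past the threshold in both, and Elovl6 turned to 0.05 with total counts. Fasn turned to 0.08 with total counts and 0.27 with the trends removed, past the threshold as higher in both. With the counts of the second transcript tables Fasn was lower at -0.09, also past the threshold, so the direction of its call depends on the processing.

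Transcripts add detail that gene levels hide. The 32 genes have 198 annotated transcripts in GENCODE M21, 2 to 15 per gene, of which 113 were above 0 TPM in both libraries. At a gene level of 10 TPM or more in both libraries, 25 of 27 genes had the same main transcript in both. Soat1 and Hmgcs1 differed. The share was 87.8% over all 6364 genes at that level with 2 or more annotated transcripts. Hmgcs1 expression was divided between Hmgcs1-201, with 52.9% of the gene's TPM in replicate 2 and 47.2% in replicate 1, and Hmgcs1-202, with 40.9% in replicate 2 and 47.5% in replicate 1, and both encode 520 residues. The second transcript tables gave Hmgcs1-201 70.4% in replicate 2 and 69.1% in replicate 1, so the split depends on the quantification. Cyp46a1 was simpler: Cyp46a1-201 held 98.3% of its TPM in replicate 2 and 98.2% in replicate 1.

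Srebf2 was the exception among the 32 in having a main transcript that is not protein coding. Srebf2-205, a retained intron transcript of 1981 bases and 4 exons at the 5′ end of the gene, held 61.9% of its TPM in replicate 2 and 55.1% in replicate 1, or 28.8 TPM in replicate 2 and 38.4 TPM in replicate 1. The second transcript tables gave 60.9% in replicate 2 and 53.0% in replicate 1. Srebf2-201, the coding transcript of 19 exons and 1130 residues, held 36.6% in replicate 2 and 40.5% in replicate 1. By fragments the order was the reverse, with 1718 for Srebf2-201 and 1091 for Srebf2-205 in replicate 2, and 5587 for Srebf2-201 and 2807 for Srebf2-205 in replicate 1; Srebf2-201 is the longer at 5077 bases. A retained intron transcript was the main one in both libraries for 2.56% of 6364 genes. These genes had a level of 10 TPM or more and 2 or more annotated transcripts. The coding Srebf2-201 stood at 17.0 TPM in replicate 2 and 28.3 TPM in replicate 1, well under the level of the gene.

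Some other genes held large noncoding shares. Retained introns made up 51.0% of Fasn TPM in replicate 2 and 39.6% in replicate 1, and Fasn-201, the coding transcript of 2504 residues, had 36.2% in replicate 2 and 54.9% in replicate 1. By the second tables the retained introns of Fasn made up 39.2% in replicate 2 and 14.3% in replicate 1. The quantifications also disagreed on its coding transcripts: Fasn-205, of 2502 residues, had 11.7% in replicate 2 and 2.88% in replicate 1 in the first tables, but 41.0% in replicate 2 and 55.9% in replicate 1 in the second. Lss-201, which encodes 733 residues, held 43.9% of Lss TPM in replicate 2 and 48.1% in replicate 1. Msmo1-206, a processed transcript with no coding sequence, held 29.0% of Msmo1 TPM in replicate 2 and 28.2% in replicate 1 by the first tables, against 20.9% in replicate 2 and 8.03% in replicate 1 by the second. Hsd17b7-204, of the same class, held 30.0% in replicate 2 and 36.8% in replicate 1. Transcripts that GENCODE marks for nonsense-mediated decay included Ggps1-206, with 23.8% in replicate 2 and 14.0% in replicate 1. These shares are of TPM, so short transcripts reach a large share on few fragments. In Dhcr7 the main transcript Dhcr7-202 held 57.7% in replicate 2 and 86.4% in replicate 1, while Dhcr7-211 held 26.1% in replicate 2 and 2.46% in replicate 1. The second tables gave Dhcr7-202 67.2% in replicate 2 and 78.1% in replicate 1, and Dhcr7-211 6.97% in replicate 2 and 1.92% in replicate 1. In all, 6 of the 32 genes had 10% or more of their TPM in retained introns in both libraries. This held for 11.1% of 12431 detected genes with a protein-coding transcript. At the same threshold, 1 of the 32 held nonsense-mediated decay transcripts, against 7.36% of those genes. For other noncoding transcripts it was 3 of the 32, against 10.9%. Neither of these 2 classes was thus more frequent in the list. The median share of protein-coding transcripts was 97.9% in replicate 2 and 99.4% in replicate 1 for the 32 genes, against 98.1% in replicate 2 and 97.8% in replicate 1 over 12431 genes. Srebf1-201, which encodes 1134 residues, held 74.5% in replicate 2 and 53.6% in replicate 1, and Srebf1-203, of 1075 residues, was listed at 0 in replicate 2 and held 22.8% in replicate 1. By the second tables Srebf1-201 held 67.8% in replicate 2 and 57.5% in replicate 1, and Srebf1-203 held 9.16% in replicate 1.

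**Figure D4:**
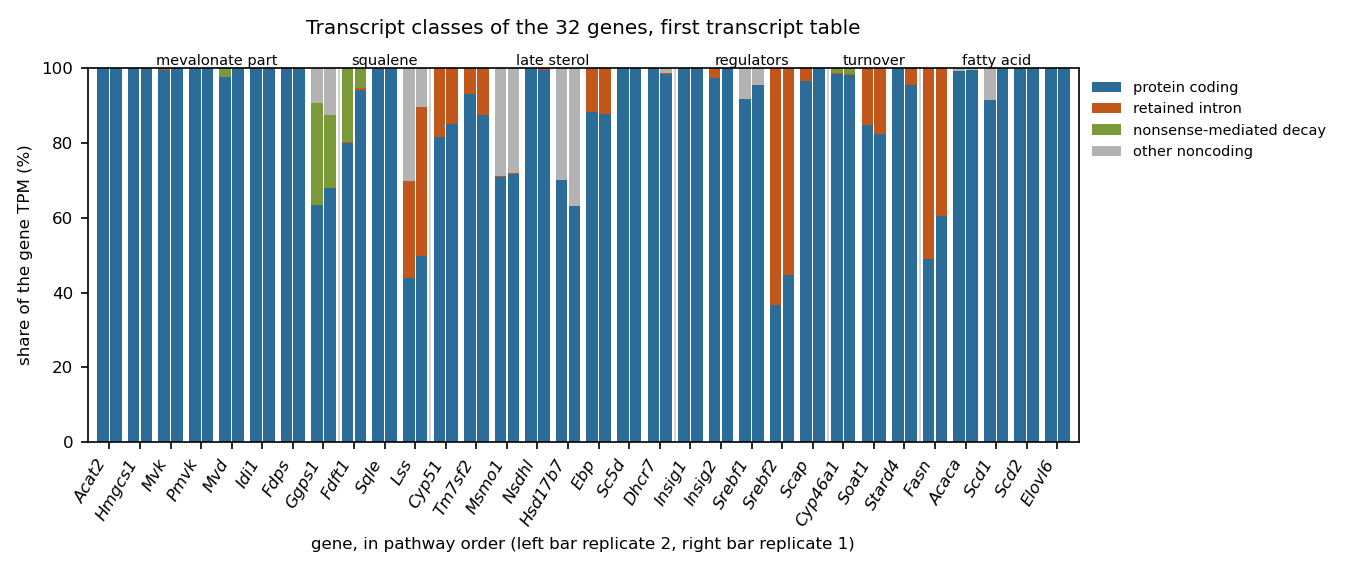
The share of each gene's TPM (vertical axis, percent) by annotated transcript class in the first transcript tables, with replicate 2 as the left bar and replicate 1 as the right bar of each pair. Most genes are almost wholly protein coding, while retained introns take 51.0% of Fasn in replicate 2 and 39.6% in replicate 1 by these tables.

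The second transcript tables, made by the authors from the same reads, gave no member a level that differed by 2-fold or more in both libraries among the 31 at 5 TPM or more, against 1.76% of all such genes. Their log2 ratio to the gene tables had a median of -0.31 in replicate 2 and -0.43 in replicate 1 for these 31 genes, against -0.28 in replicate 2 and -0.40 in replicate 1 for all genes. The widest was Fasn in replicate 1, at -0.79.

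Of 32 other genes of lipid metabolism, listed for comparison, 31 were detected. Their median was 13.43 TPM in replicate 2 and 19.57 TPM in replicate 1. In replicate 2, 6 (19.4%) were higher, 16 (51.6%) were lower and 9 did not pass, against 26.0% higher and 36.3% lower over all genes tested. Their median log2 ratio was -0.15. Highest were Pgrmc1, a haem-binding membrane protein that interacts with sterol enzymes, at 335 TPM in replicate 2 and 273 TPM in replicate 1, and the sterol carrier Scp2 at 232 TPM in replicate 2 and 193 TPM in replicate 1. Ch25h, a cholesterol hydroxylase, was lowest at 0.61 TPM in replicate 2 and 0.69 TPM in replicate 1. Higher by 1.5-fold or more were 0 of the 31, against 3.22% of all genes tested. The highest ratio was that of the transporter Abcg1 (0.57). Lower by 1.5-fold or more were 5 of the 31, a share close to the 17.2% of all genes tested. Named after their values were seen, they included the malic enzyme Me1 (ratio -1.47), and Elovl5 (-0.75) and Fads1 (-0.72) of polyunsaturated fatty acid synthesis. The others were the sterol receptor Nr1h2 (-0.73) and the transporter Abcg4 (-0.71). By TPM Fads1 differed less, with 121 TPM in replicate 2 and 139 TPM in replicate 1.

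The ratio between the libraries varied with base composition, and markers of cell types differed between them as well. Over 14646 genes the log2 ratio fell as the GC content of the transcripts increased (Spearman -0.307), from a median of 0.10 at 40 to 44% GC to -0.55 at 60 to 64%, and across the 32 genes the correlation was -0.299. At 56 to 60% GC, where 9 of the 32 lie, the median of all genes was -0.23; Cyp46a1, at 58.4% GC, Srebf2, at 56.2%, Tm7sf2 and Scap lay below it, whereas Fasn, Mvk, Mvd, Srebf1 and Pmvk lay above it. With the trends on GC content and length removed, Cyp46a1 was at -0.99, Dhcr7 at -0.62, Insig2 at -0.60 and Srebf2 at -0.59, all past the threshold. In bulk tissue fewer cells of a type and less RNA per cell cannot be told apart. The marker counts below stand beside 26.0% higher and 36.3% lower over all genes tested. Of 6 neuronal markers, 2 were higher in replicate 2 (Snap25 0.12 and Gad1 0.28) and 4 were lower. The lower ones were Slc17a7 (-1.29), Rbfox3 (-0.90), Tubb3 (-0.18) and Syt1 (-0.11). Slc17a7 (57.4% GC), Rbfox3 (59.8%) and Tubb3 (57.9%) lie at 56 to 60% GC, where the median of all genes was -0.23. The summed level of the 6 was 3810 TPM in replicate 2 and 3579 TPM in replicate 1. Of 6 oligodendrocyte markers 3 were higher and 2 were lower, with sums of 3585 TPM in replicate 2 and 3306 TPM in replicate 1, and of 5 astrocyte markers 4 were higher and 1 was lower, with sums of 1816 TPM in replicate 2 and 1467 TPM in replicate 1. Of 4 microglial markers 3 were higher (sums of 146 TPM in replicate 2 and 131 TPM in replicate 1), of 3 endothelial markers 1 was higher and 1 was lower (148 TPM in replicate 2 and 111 TPM in replicate 1), and all 3 markers of oligodendrocyte precursors were lower (54.9 TPM in replicate 2 and 63.0 TPM in replicate 1). The calls rest on CPM and the sums on TPM, and several sums mostly follow 1 abundant marker. Snap25 had 2730 TPM in replicate 2 and 2359 TPM in replicate 1, and Aldoc had 1397 TPM in replicate 2 and 1129 TPM in replicate 1. Cldn5 had 131 TPM in replicate 2 and 94.2 TPM in replicate 1. A sum is thus no measure of how much of a cell type a library held. The part of these markers in the values of the 32 genes was not tested. Markers of other lipid-making tissues were near 0, with sums of 1.54 TPM in replicate 2 and 0.91 TPM in replicate 1 for 3 hepatocyte genes (Alb, Apoa1 and Cyp7a1), and 0.09 TPM in replicate 2 and 0.22 TPM in replicate 1 for 3 adipocyte genes (Adipoq, Plin1 and Cidec).

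**Figure D5:**
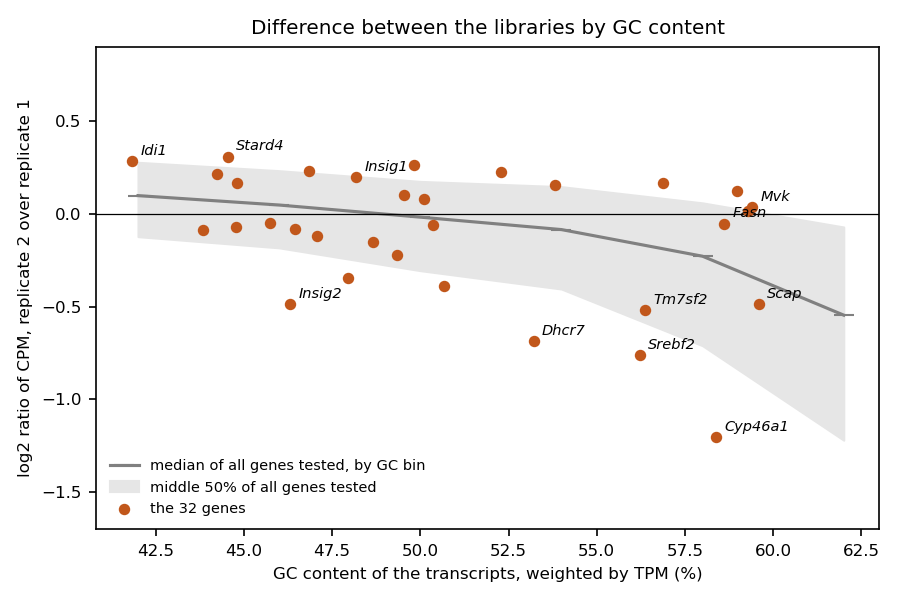
The log2 ratio of CPM, replicate 2 over replicate 1, against the GC content of the transcripts (percent) for the 32 genes (points), with the median (line) and middle 50% (band) of all genes tested per GC bin. The line falls from 0.10 in the lowest bin to -0.55 in the highest, and Cyp46a1, Srebf2, Dhcr7 and Insig2 are among the points below the band.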

How the data were processed

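The members and the gene lists were chosen with earlier results of these data known. The gene tables held expected counts and TPM deposited by the authors, computed from transcriptome alignments per the notes deposited with the tables, on mm10 with GENCODE M21. The first transcript tables added the percent of the gene's TPM per transcript, as deposited, and the second transcript tables held TPM and estimated counts, which the authors derived from the read files. Aligner, quantifiers and strand setting: not given in the sources used here. Rows naming no gene (26345, holding 3.35e-05 percent of fragments in replicate 2 and 1.73e-05 percent in replicate 1) stayed out.

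Expected counts were rounded to whole numbers. The libraries were compared by a two-sided exact binomial test (SciPy 1.17.1) with library sizes scaled by TMM (edgeR 4.0.16, R 4.3.3), because with 1 library on each side a quasi-likelihood fit has no residual degrees of freedom. Log2 ratios used CPM plus 0.5, which pulls low genes toward 0. Alternatives were total-count scaling, DESeq2 1.42.0 size factors, the second transcript tables, lowess trends on GC content and length (fraction 0.3, statsmodels 0.14.6), other filters and pseudocounts, and leaving out each library. The test was checked on simulated counts drawn with counting error only, the error that the test assumes. That check does not cover other variation between libraries. The libraries carried no molecular identifiers. All members were named. Of the other pathway genes, the 2 highest and the lowest in level were named. The gene with the highest ratio and those lower by 1.5-fold or more were named too. Near copies and overlapping genes that share sequence with a member were named in part. Those left out include Akap9, Arid4b and Rai1, which overlap exons of Cyp51, Ggps1 and Srebf1. Scd3, which shares words with Scd1 and Scd2, was left out as well.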

Additional observations from a re-analysis of the deposited data

How the results depend on the processing

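With total-count scaling 18 of the 32 genes were called higher in replicate 2, against 11 with TMM, where all genes went to 39.1% higher, against 26.0% with TMM, and the median log2 ratio was 0.0764 in place of -0.05. The log2 ratio turned for Hmgcs1 (0.042), Cyp51 (0.0094), Msmo1 (0.0571), Fasn (0.0757), Nsdhl (0.077), Ebp (0.0679) and Elovl6 (0.0462) with total counts, for Ebp (0.0162) and Elovl6 (0.0013) with counts of the second quantification, and for Fasn (0.27) with the trends on GC content and length removed; the causes were not tested. The median TPM of the 32 genes was 23.1 in the second transcript tables, against 28.2 in the gene tables. Without replicate 1 it was 27.49 and without replicate 2 it was 28.84, and the number of genes at 2-fold or more between quantifications was 0 in either case. With counts of the second quantification, 26 log2 ratios kept their direction and side of the threshold, 3 lost the call and 1 gained it. With the trends removed 25 kept both, 4 gained a call in the same direction and 2 lost it. Fasn, which turned there, also gained a call, as higher. DESeq2 size factors and a pseudocount of 0.1 CPM changed no call or direction. No paired analysis was possible because the libraries form a single group. Depth limits the low genes most: Stard4 rests on 429 fragments in replicate 2 and 609 in replicate 1.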
